A study of Mus musculus with 15 samples.

Results

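The genes described here are 38 named genes of glycolysis and of the response to low oxygen in mouse fibroblasts. They were taken by symbol from the table of gene counts. The 38 symbols matched 39 of the 55487 gene identifiers in that table, because Aldoa has 2 identifiers. They cover sugar and lactate transporters, the glycolytic enzymes, the lactate and pyruvate enzymes around them, the hypoxia-inducible factors with their prolyl hydroxylases, and other genes known to be induced by hypoxia.

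Glycolysis splits glucose into pyruvate in the cytosol and yields ATP without oxygen. Lactate dehydrogenase turns pyruvate into lactate, which leaves the cell through monocarboxylate transporters. When oxygen is low, the prolyl hydroxylases of the EGLN family stop marking the alpha subunits of the hypoxia-inducible factors (HIF) for destruction. HIF-1 alpha (Hif1a) or HIF-2 alpha (Epas1) then pairs with ARNT and binds hypoxia response elements near its targets, among them glucose transporters, most glycolytic enzymes and Vegfa. In fibroblasts this program also raises the enzymes that hydroxylate collagen.

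PolyA RNA was sequenced from TTF cells (TTF commonly stands for tail-tip fibroblast) taken from female C57BL6 and CAST hybrid mice. The knockout (KO) libraries are labelled as knockouts of SIRT7, a nuclear deacylase of the sirtuin family, and carry the numbers 2, 9 and 22. The wild-type (WT) libraries carry the numbers 1, 2 and 3 and are of the same sex and strain background. By their names the WT libraries belong to a set of samples titled as numbered replicates, KO 9 and KO 22 to another set of KO samples, and KO 2 to either, so genotype and sample set cannot be told apart. Samples with SIRT7 added back and samples named SIRT7-HY were not analysed here. The labels leave out the age of the mice, how the knockout was made, whether a line was 1 clone and whether each library had its own animal or culture. The p-values therefore reflect the spread among these libraries, which may be technical.

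The libraries held 61065582 to 61506413 estimated counts each. Pairs of KO libraries correlated at r = 0.9708 to 0.9811, pairs of WT libraries at 0.9951 to 0.9955, on log2 CPM over genes. The WT libraries were thus much closer to each other than the KO libraries were, and a difference between lines cannot be told apart from a difference by genotype. For the targeted gene, Sirt7 had 512, 694 and 787 counts in KO 2, 9 and 22 and 833, 1107 and 598 in WT 1, 2 and 3, and the groups overlapped. Its transcript ENSMUST00000080202 had 2, 0 and 0 counts in the KO libraries and 53, 58 and 159 in the WT libraries. This transcript held a minor part of the Sirt7 counts in WT, and transcript shares were unstable for some genes, as given below. Of 12 fibroblast markers, all 12 were tested and 3 were higher in KO (Col1a1, Col1a2 and Col3a1), with a summed level of 28300 to 36600 CPM in KO and 18100 to 18400 CPM in WT. Marker lists of other cell types were low. Skeletal muscle markers summed to 49.3 to 112 CPM in KO and 18.1 to 21.7 in WT, with Acta1 higher in KO and Myod1, Myog and Pax7 at 0. Adipocyte markers summed to 3.81 to 40.0 CPM in KO and 14.7 to 18.6 in WT, and neuronal markers to 4.09 to 35.1 in KO and 8.34 to 9.20 in WT. Endothelial, keratinocyte, macrophage, Schwann and chondrocyte markers summed to at most 10.2 CPM in every library, with Cdh5, Cldn5, Krt1, Adgre1 and Col9a1 at 0. In bulk RNA, fewer cells of a type and less RNA per cell cannot be told apart.

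Of the 38 tested identifiers 5 differed between KO and WT, and the abundant glycolytic enzymes were not among them. P4ha1 was higher in KO, and Vegfa, Eno2, Egln3 and Slc16a1 were lower (edgeR quasi-likelihood test on counts, Benjamini-Hochberg adjusted p under 0.05 over 16678 genes). Over all tested genes 6.73% passed the same threshold, 3.54% higher and 3.19% lower. The other 33 tested identifiers did not pass. Ldhb, the heart-type subunit of lactate dehydrogenase, was not tested, with 0 to 9 counts in every library. The median log2 fold change, KO over WT, was 0.01 over the tested identifiers and 0.02 over all tested genes. Unadjusted p-values lay under 0.05 for 9 of the 38, against 26.3% of all tested genes. In 11 identifiers the KO and WT libraries did not overlap, 4 with KO above WT and 7 with KO below WT, against 35.9% of all tested genes, 15.7% with KO above and 20.2% with KO below. By unadjusted p and by overlap the members thus stood near or below the background. These calls rest on all WT libraries. Without any 1 of the WT libraries none of the 5 passed edgeR's test, and their adjusted p-values then lay between 0.0945 and 0.180, with 7 or 8 members at an unadjusted p under 0.05. Of all tested genes only 0.262% to 0.296% then passed, so the loss of calls was not particular to the members.

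**Figure D1:**
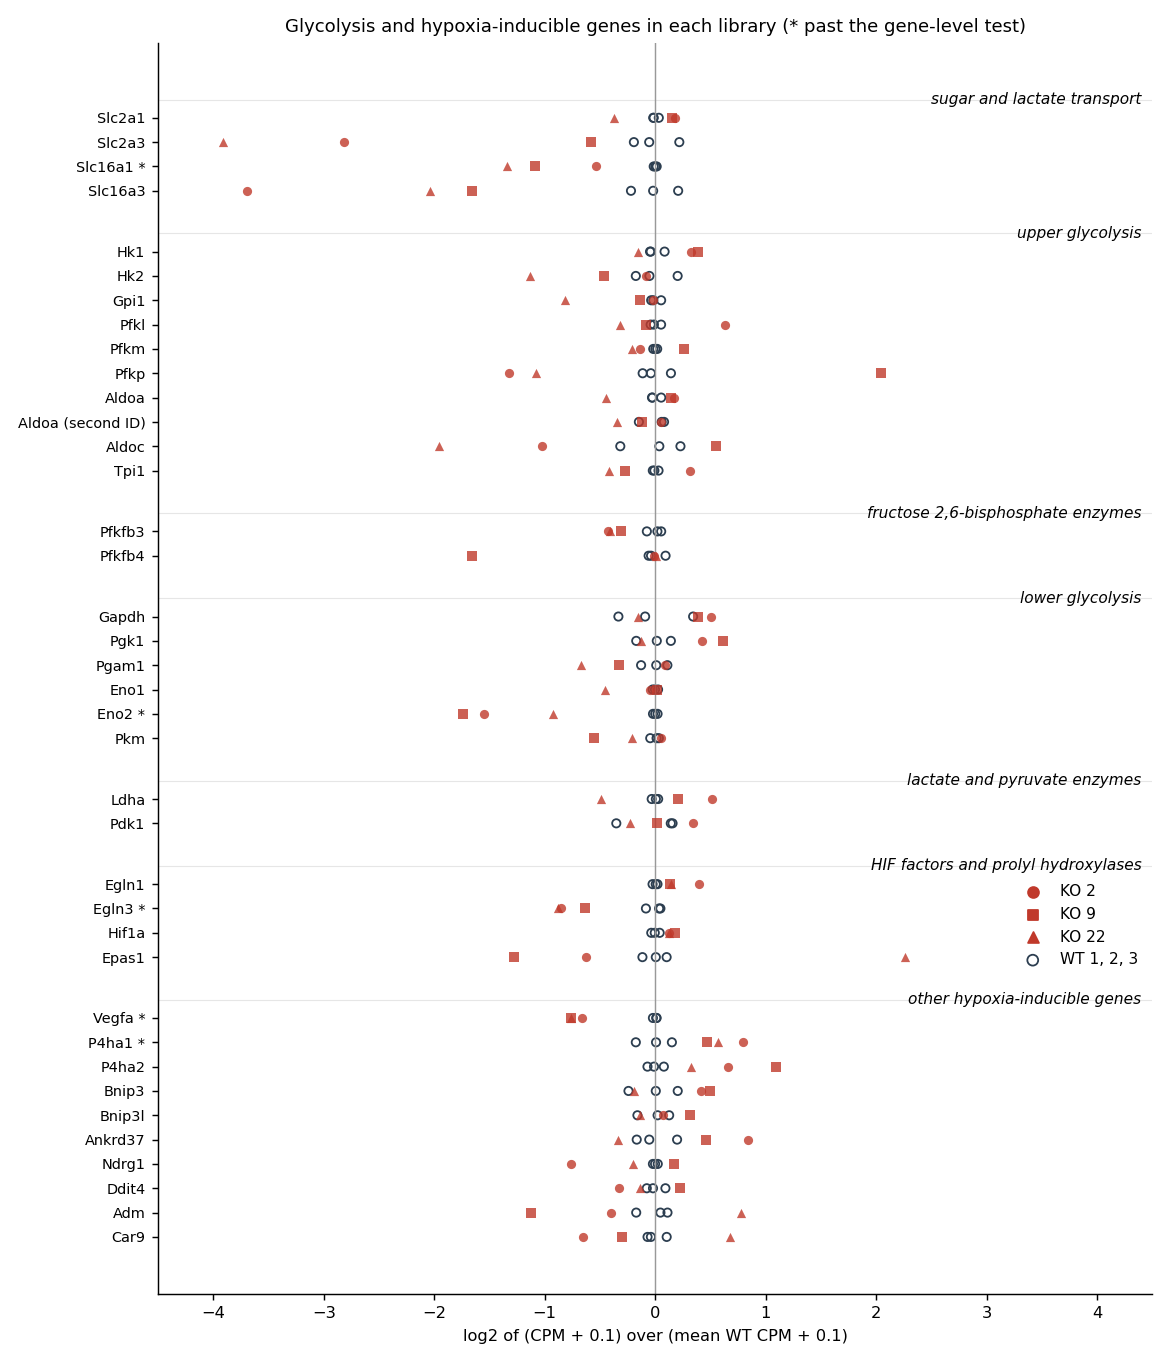
Each row is a tested identifier, grouped by role, and the x axis gives the log2 ratio of its CPM plus 0.1 to the mean WT CPM plus 0.1 (red symbols KO 2, 9 and 22, open circles WT 1, 2 and 3). The WT circles stay close to 0, the KO symbols of most rows spread to both sides, and the 5 rows marked with a star passed the gene-level test.

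Among the 4 transporters, Slc16a1 was lower in KO. Slc16a1 encodes MCT1, a carrier of lactate and pyruvate. It had 48.9, 33.3 and 27.9 CPM (counts per 1000000 gene counts) in KO 2, 9 and 22, against 70.1, 70.9 and 71.4 CPM in WT 1, 2 and 3. Every KO library lay below every WT library. The log2 fold change was -0.92 ± 0.19 (SE; edgeR adjusted p = 0.0443), and it did not pass without KO 9 (adjusted p = 0.0854).

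Slc16a3, which encodes the lactate exporter MCT4, was low in all libraries, with 0.278, 1.45 and 1.10 CPM in KO and 4.11, 4.74 and 5.56 CPM in WT. The groups did not overlap, and the log2 fold change of -2.31 ± 0.56 missed the threshold (edgeR adjusted p = 0.0608), which it passed with DESeq2 (adjusted p = 0.000135). Slc2a3, the neuronal-type glucose transporter GLUT3, had 7, 56 and 0 counts in KO and 101, 83 and 75 in WT, with a log2 fold change of -2.01 ± 1.15 (edgeR adjusted p = 0.322). Without KO 9 the log2 fold change was -4.55 and passed (edgeR adjusted p = 0.0497). A processed pseudogene on the same strand, Gm4482, overlaps Slc2a3 and held 142 to 243 counts in KO and 203 to 268 in WT. Slc2a1, the main glucose transporter GLUT1 of fibroblasts, averaged 150 ± 30.3 CPM in KO and 149 ± 2.93 CPM in WT (SD, n = 3 each).

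None of the 10 identifiers of the preparatory phase of glycolysis, which spends ATP to make triose phosphates, passed edgeR's test, 0 had an unadjusted p under 0.05, and DESeq2 called none either. They are the hexokinases Hk1 and Hk2, glucose-6-phosphate isomerase Gpi1, the phosphofructokinase subunits Pfkl, Pfkm and Pfkp, the aldolases Aldoa and Aldoc, and triosephosphate isomerase Tpi1. Log2 fold changes ran between -0.47 and 0.77, and 5 of the 10 were above 0. The KO libraries differed from each other in these genes: KO 22 was the lowest of the 6 libraries for 9 of the 10, and without KO 22 Hk1 passed edgeR's test.

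Pfkp, the platelet-type phosphofructokinase subunit, had the widest spread of the 10 among KO libraries, with a coefficient of variation of 128%. It had 6.55, 68.2 and 7.78 CPM in KO 2, 9 and 22 and 18.2, 16.1 and 15.3 CPM in WT 1, 2 and 3. KO 9 was far above every other library, while KO 2 and KO 22 were below every WT library. The log2 fold change was 0.77 ± 0.88 with all libraries (edgeR adjusted p = 0.627) and -1.17 without KO 9 (adjusted p = 0.0221). Pfkp overlaps Pitrm1 on the opposite strand, which held 5622 to 7822 counts in KO and 7072 to 7646 in WT. A strand setting for the counting was not given in the sources used here.

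Pfkfb3 and Pfkfb4 are bifunctional enzymes that set the level of fructose 2,6-bisphosphate, the strongest activator of phosphofructokinase. Pfkfb3 had 14.1, 15.2 and 14.2 CPM in KO and 19.2, 19.7 and 18.0 CPM in WT, without overlap, and its log2 fold change of -0.35 ± 0.11 did not pass (edgeR adjusted p = 0.105). Pfkfb4 had 2.52 CPM in KO 9 and 7.85 to 8.74 CPM in the other 5 libraries.

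In the payoff phase, which makes ATP and pyruvate, Eno2 was lower in KO and the other 5 genes did not pass. Eno2 encodes gamma-enolase, the neuron-enriched form of enolase. It had 9.12, 7.95 and 14.1 CPM in KO and 26.5, 27.2 and 26.8 CPM in WT. The KO values lay at about 0.397 times the WT values, with no overlap (log2 fold change -1.33 ± 0.23, edgeR adjusted p = 0.0288). Eno1, the widespread alpha form, was much more abundant at 936 ± 157 CPM in KO and 1037 ± 17.7 CPM in WT (SD, n = 3 each), and it did not pass (log2 fold change -0.12 ± 0.13, edgeR adjusted p = 0.595).

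Pgk1, phosphoglycerate kinase, is the X-linked member. It had 768, 879 and 526 CPM in KO 2, 9 and 22 and 580, 634 and 510 CPM in WT 1, 2 and 3. KO 2 and KO 9 lay above every WT library and KO 22 among them. The log2 fold change was 0.36 ± 0.19 (edgeR adjusted p = 0.276) with all libraries and 0.53 without KO 22 (adjusted p = 0.0417). Pkm, pyruvate kinase, had 2085, 1371 and 1740 CPM in KO and 2057, 2028 and 1949 CPM in WT, with KO 9 the lowest.

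Summed over the 18 identifiers of glycolytic enzymes and lactate dehydrogenases, the level was 7440, 6340 and 5149 CPM in KO 2, 9 and 22 and 6637, 6716 and 6481 CPM in WT 1, 2 and 3. KO 2 was above and KO 9 and KO 22 were below all WT libraries. Counts placed on near-identical copies of these genes, described below, were not in the sum. KO 22 was the lowest library for 18 of the 38 tested identifiers, against 24.3% of all tested genes. The median coefficient of variation over the tested identifiers was 25.7% among KO libraries and 5.57% among WT libraries, and over all tested genes 19.9% among KO and 7.21% among WT.

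By level per transcript length, Pkm led with 1489 ± 194 TPM (transcript counts per base of length, scaled to 1000000 in all; mean and SD over the 6 libraries). Eno1 followed at 909 ± 91.0 TPM, then Aldoa at 685 ± 92.0, Pgk1 at 651 ± 154, Ldha at 646 ± 106 and Pgam1, phosphoglycerate mutase, at 452 ± 74.5. Neighbours from Aldoa to Ldha in this order did not differ beyond their spread. In all, 10 identifiers reached 100 TPM, the others of them being Tpi1, Gpi1, P4ha1 and Pfkl. The lowest tested identifiers were Slc2a3, Car9, Epas1, Aldoc, Slc16a3 and the second Aldoa identifier, at 0.395 to 3.60 TPM. The Tpi1 value, 225 ± 172 TPM, is uncertain, since in the lowest library only 0.783% of the Tpi1 counts lay in transcripts with an annotated length. The transcript Tpi1-204 held 191 counts in KO 2 and 101 in WT 2, against 10924 or more in each other library. Gapdh, at 94.2 TPM, and Eno1 were taken without their near-identical copies, described below. Those of Gapdh held 94735 to 147624 counts per library. The order therefore holds for the identifiers alone and depends on how shared reads are placed.

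Gapdh, the usual housekeeping enzyme of glycolysis, held only 3893, 3616 and 2459 counts in KO and 2573, 3499 and 2191 in WT. The annotation holds 182 near-identical copies of Gapdh, 178 of them pseudogenes, to which the authors' counting gave 94735 to 143312 counts in KO and 144317 to 147624 in WT. One of them, Gapdh-ps15 on the Y chromosome, held 2215 to 3361 counts in the KO and 3746 to 3805 counts in the WT libraries of these female samples. Gene and copies together came to 143829, 146928 and 97194 counts in KO 2, 9 and 22, against 150197, 147816 and 146938 in WT 1, 2 and 3, so that KO 22 was the low library. The log2 fold change was 0.30 ± 0.22 for the gene alone and -0.17 ± 0.15 with the copies added (edgeR adjusted p = 0.439 and 0.535), so the direction for Gapdh depends on how shared reads are placed.

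Near-identical copies were found for 12 of the 38 genes. Eno1b, 99.5% identical to an Eno1 transcript, held 26448 to 38503 counts in KO and 33080 to 36352 in WT, beside 46291 to 64498 in KO and 62638 to 64444 in WT for Eno1 itself. The 4 Pgk1 copies held counts of their own, which set against the separate Pgk1 count came to 15.7% to 16.2% of it in KO and 15.4% to 17.1% in WT. Adding the copies' counts turned the direction for Gapdh and for none of the other 10 tested genes with copies, and the same 5 members passed.

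**Figure D2:**
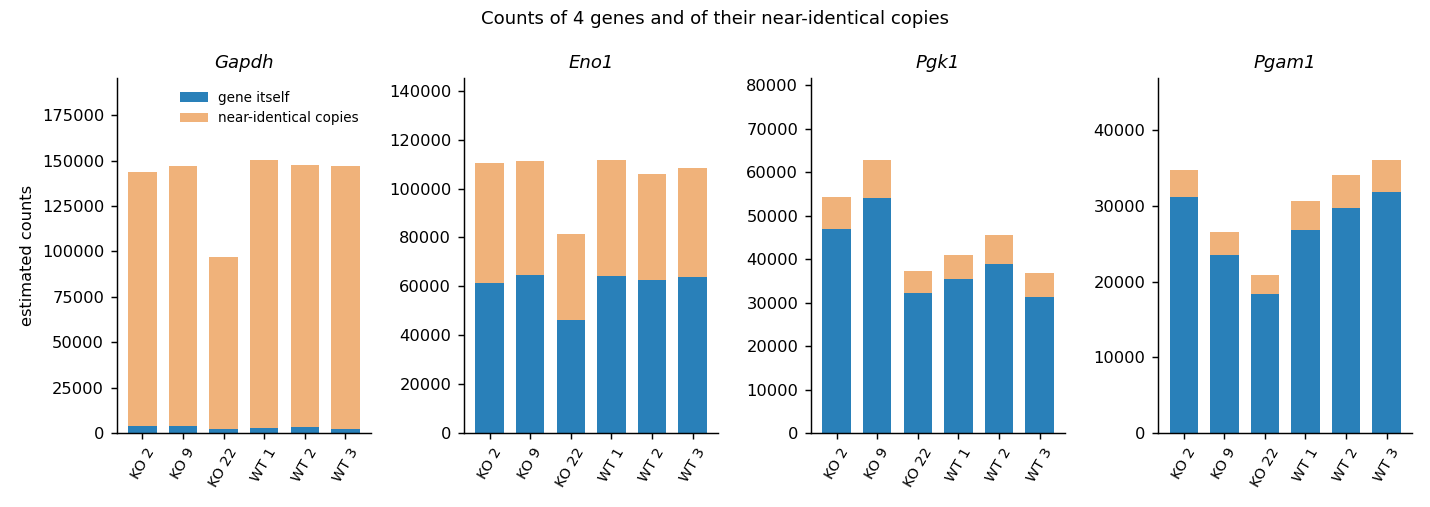
Stacked bars give the estimated counts of Gapdh, Eno1, Pgk1 and Pgam1 in blue and of their near-identical copies in orange, for KO 2, 9 and 22 and WT 1, 2 and 3. Copies take most of the Gapdh bar, at 94735 counts or more per library, and KO 22 has the lowest bar for Gapdh, Eno1 and Pgam1.

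Around pyruvate, Ldha, the muscle-type subunit of lactate dehydrogenase, had 789, 636 and 393 CPM in KO and 539, 561 and 553 CPM in WT. KO 2 and KO 9 lay above and KO 22 below the WT libraries (log2 fold change 0.16 ± 0.23, edgeR adjusted p = 0.694). Pdk1, the kinase that switches off pyruvate dehydrogenase, averaged 22.7 ± 4.55 CPM in KO and 21.8 ± 4.11 CPM in WT (SD, n = 3 each).

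Of the HIF factors and prolyl hydroxylases, Egln3 was lower in KO. Egln3 encodes the prolyl hydroxylase PHD3 and is itself a HIF target. It had 7.58, 8.80 and 7.40 CPM in KO and 14.1, 13.0 and 14.2 CPM in WT, without overlap (log2 fold change -0.76 ± 0.14, edgeR adjusted p = 0.0309). Egln1, the main prolyl hydroxylase PHD2, had 130, 108 and 109 CPM in KO and 97.4, 99.4 and 101 CPM in WT, also without overlap, and did not pass (log2 fold change 0.26 ± 0.09, adjusted p = 0.146).

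Hif1a RNA had 161, 168 and 161 CPM in KO and 144, 152 and 148 CPM in WT. The groups did not overlap, and the log2 fold change of 0.17 ± 0.07 did not pass (edgeR adjusted p = 0.200). Epas1 had 2.03, 1.25 and 15.7 CPM in KO 2, 9 and 22 and 3.42, 3.19 and 2.93 CPM in WT 1, 2 and 3. KO 22 alone was above WT, and the log2 fold change was 1.04 ± 0.91 with all libraries and -0.94 without KO 22 (edgeR adjusted p = 0.518 and 0.0664). HIF activity is set mainly by the stability of the proteins, which these RNA values do not measure.

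Among the other hypoxia-inducible genes, P4ha1 was higher and Vegfa lower in KO. P4ha1 encodes the alpha 1 subunit of collagen prolyl 4-hydroxylase. It had 358, 285 and 307 CPM in KO and 183, 229 and 207 CPM in WT, with every KO library above every WT library (log2 fold change 0.65 ± 0.12, edgeR adjusted p = 0.0332). It did not pass with limma-voom weighted by group (adjusted p = 0.0568). P4ha2, the alpha 2 subunit, had 95.8, 130 and 76.1 CPM in KO and 57.9, 64.1 and 60.3 CPM in WT, likewise without overlap, and missed the threshold (log2 fold change 0.76 ± 0.19, edgeR adjusted p = 0.0637; DESeq2 adjusted p = 0.00623). The 3 fibrillar collagen markers named above, Col1a1, Col1a2 and Col3a1, were also higher in KO, by log2 fold changes of 0.93, 1.25 and 1.10, and their part in the P4ha1 and P4ha2 values was not tested.

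Vegfa encodes vascular endothelial growth factor A, the best known secreted HIF target. It had 28.5, 26.7 and 26.6 CPM in KO and 45.5, 44.6 and 45.6 CPM in WT. Both groups were tight, and the log2 fold change of -0.70 ± 0.09 had the smallest adjusted p of the members (edgeR adjusted p = 0.0125). The median gene of chromosome 17, where Vegfa lies, had a log2 fold change of -0.29. With that chromosome median taken out, Vegfa was at -0.41 and did not pass (adjusted p = 0.0534). The same step ended the calls of P4ha1 (chromosome 10 median 0.18, adjusted p = 0.0850), then at a log2 fold change of 0.47, and of Slc16a1 (chromosome 3 median -0.09, adjusted p = 0.0694), then at -0.83, while Eno2 and Egln3 still passed.

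The remaining 7 hypoxia-inducible genes did not pass. They are the mitophagy receptors Bnip3 and Bnip3l, Ankrd37, Ndrg1, the mTORC1 inhibitor Ddit4, the peptide hormone adrenomedullin (Adm) and the carbonic anhydrase Car9, with log2 fold changes between -0.18 and 0.44. Adm split the KO libraries, with 54.3, 32.8 and 123 CPM in KO 2, 9 and 22 against 63.7, 77.6 and 74.2 CPM in WT. Car9, a sensitive marker of hypoxia in many cells, was low, at 0.573 to 1.60 CPM in KO and 0.912 to 1.04 CPM in WT. Ankrd37 at 1.29 to 3.05 CPM in KO and 1.47 to 1.92 CPM in WT overlaps the much more abundant Ufsp2 on the other strand.

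**Figure D3:**
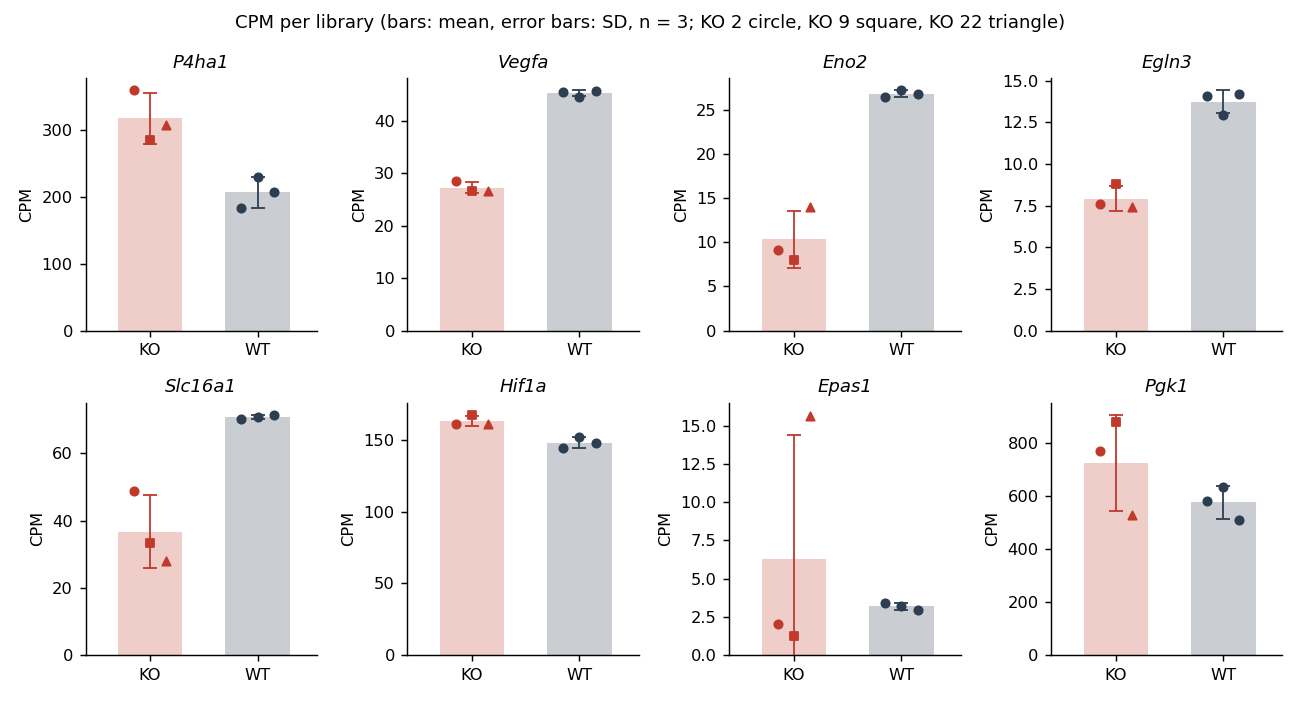
CPM per library of the 5 members past the gene-level test and of Hif1a, Epas1 and Pgk1, with KO left and WT right (bars mean, error bars SD, n = 3 each; the lower Epas1 error bar is cut at 0). KO lies wholly above WT for P4ha1 and wholly below it for Vegfa, Eno2, Egln3 and Slc16a1, and 1 KO library, at 15.7 CPM, sets the Epas1 mean.

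The promoter windows of the members are shown because HIF acts through short elements in them. The core of the element is ACGTG or GCGTG, searched on both strands, so that CACGT and CACGC count as well and CACGTG counts on both strands. RefSeq windows (GRCm38.p6, 250 bases before to 50 after each start) were found for 34 of the 38 symbols, in 48 windows, and not for Slc2a3, Ndrg1, Epas1 and Bnip3l. A match was present in 39 of the 48 windows (81.2%), against 43.8% of all 32851 windows and 69.2% of the windows with at least 60% G and C. For ACGTG alone the shares were 56.2% in the members, 19.6% in all windows and 26.5% in the windows rich in G and C. Some windows of Aldoa, Eno1 and Pfkm overlap and count the same match more than once. By gene, 31 of the 34 had a match in any window, for which no share over all genes is given. The members were listed for being glycolytic or hypoxia-inducible, and a match is a string of letters and not a shown binding site. Of the members past the test, P4ha1, Slc16a1 and Egln3 had matches, Eno2 had none, and of 2 Vegfa windows the one at the upstream start had none and the other had 2. The windows of the called members with a single start, and that of Pgk1, read as follows 5′ to 3′ on the gene's strand, with matches in capitals.
P4ha1, chr10:59323046-59323345 (+): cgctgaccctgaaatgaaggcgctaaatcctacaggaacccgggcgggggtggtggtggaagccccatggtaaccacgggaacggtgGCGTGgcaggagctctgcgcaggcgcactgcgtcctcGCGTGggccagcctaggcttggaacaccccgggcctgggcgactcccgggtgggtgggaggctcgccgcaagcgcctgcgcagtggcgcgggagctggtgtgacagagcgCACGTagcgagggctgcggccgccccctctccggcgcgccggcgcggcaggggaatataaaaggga
Slc16a1, chr3:104638414-104638713 (+): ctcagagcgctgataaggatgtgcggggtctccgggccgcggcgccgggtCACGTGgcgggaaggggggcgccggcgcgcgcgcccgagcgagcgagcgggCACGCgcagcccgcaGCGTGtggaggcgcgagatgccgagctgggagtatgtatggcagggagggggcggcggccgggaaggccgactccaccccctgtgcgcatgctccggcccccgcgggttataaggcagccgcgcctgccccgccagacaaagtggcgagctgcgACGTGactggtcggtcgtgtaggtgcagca
Egln3, chr12:54203825-54204124 (-): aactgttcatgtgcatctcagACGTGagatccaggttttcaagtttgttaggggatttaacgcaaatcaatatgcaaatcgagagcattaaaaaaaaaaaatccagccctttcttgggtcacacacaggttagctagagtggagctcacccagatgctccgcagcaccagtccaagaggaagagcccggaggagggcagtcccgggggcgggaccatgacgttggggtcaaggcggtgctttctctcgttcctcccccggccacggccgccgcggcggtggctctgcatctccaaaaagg
Eno2, chr6:124769624-124769923 (-): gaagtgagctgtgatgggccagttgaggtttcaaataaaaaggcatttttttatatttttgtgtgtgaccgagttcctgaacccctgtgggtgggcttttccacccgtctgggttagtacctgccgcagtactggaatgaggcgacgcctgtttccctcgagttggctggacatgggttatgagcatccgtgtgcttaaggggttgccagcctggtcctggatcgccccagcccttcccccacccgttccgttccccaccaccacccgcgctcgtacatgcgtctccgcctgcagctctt
Pgk1, chrX:106186850-106187149 (+): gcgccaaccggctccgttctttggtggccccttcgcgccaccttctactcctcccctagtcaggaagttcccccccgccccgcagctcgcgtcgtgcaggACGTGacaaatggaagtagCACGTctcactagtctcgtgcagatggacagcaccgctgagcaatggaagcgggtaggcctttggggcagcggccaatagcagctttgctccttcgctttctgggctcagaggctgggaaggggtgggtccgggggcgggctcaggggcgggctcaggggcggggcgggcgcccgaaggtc
P4ha1, which was higher in KO, and Slc16a1 and Egln3, which were lower, all carry matches in these windows. As 81.2% of the member windows hold a match, these few genes cannot show whether matches go with a direction of change.

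The Vegfa transcripts also differed between groups in the table of all reads. Vegfa-201 held 70.7%, 64.6% and 58.7% of the per-length Vegfa signal in KO 2, 9 and 22 and 8.32%, 9.78% and 9.99% in WT 1, 2 and 3. The groups were far apart, by 55.3 percentage points (exact permutation test, two-sided p = 0.10, the smallest that 3 against 3 libraries allow). Vegfa-202 starts 554 bases further upstream and carries 1 exon of 132 bases that Vegfa-201 lacks. This exon separates the transcripts, at chr17:46020991-46021122 (GRCm38, minus strand) and reads in lower case, with nothing marked:
Vegfa exon: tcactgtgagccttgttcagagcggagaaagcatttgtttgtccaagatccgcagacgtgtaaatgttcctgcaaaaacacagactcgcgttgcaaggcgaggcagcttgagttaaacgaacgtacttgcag

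The split-read table, in which reads were sorted by genome before counting, did not show the same separation. There Vegfa-201 took 64.7%, 75.9% and 79.2% of the Vegfa-201 and Vegfa-202 counts of unassigned reads in KO and 68.1%, 56.8% and 29.1% in WT. In the all-reads table the same measure was 83.3%, 80.6% and 82.9% in KO and 9.16%, 11.2% and 11.2% in WT. In genome 1 reads it ran between 22.5% and 99.2% in KO and between 15.7% and 99.1% in WT, and in genome 2 reads between 46.0% and 99.6% in KO and between 96.1% and 99.7% in WT. The transcript difference therefore depends on which of the deposited tables is read, while the difference in total Vegfa counts does not rest on it.

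**Figure D4:**
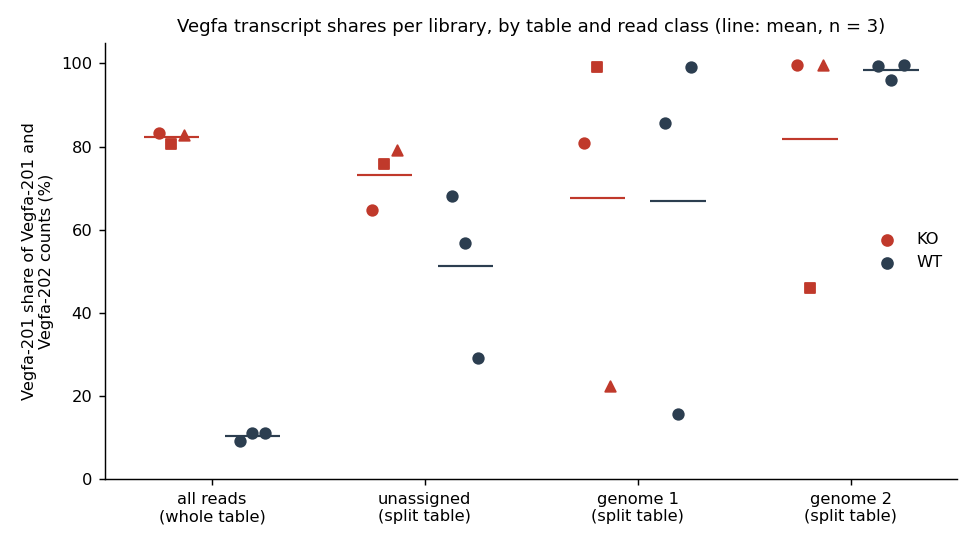
Share of Vegfa-201 in the counts of Vegfa-201 and Vegfa-202 (%, y axis) per library, KO left and WT right within each class, for all reads and for the 3 read classes of the split table; lines are means of 3 libraries. The groups lie far apart in all reads, at 80.6% to 83.3% in KO and 9.16% to 11.2% in WT, and are mixed or close in the split classes.

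Of 35 members with at least 100 counts on average, 15 had a single transcript above a share of 10% and 20 had several. For the transcript with the largest difference the groups did not overlap in 8 of the 20, Vegfa included, against 20.1% of 6490 genes chosen by the same rule. The transcript was picked in each gene for its difference, so these counts are a description. The next largest after Vegfa was Pfkfb4-203, at 87.8%, 0% and 77.3% in KO and 91.4%, 90.6% and 93.8% in WT. Pkm-202 had 23.2%, 15.7% and 23.8% in KO and 14.7%, 11.1% and 8.89% in WT, and Eno2-203 had 58.7%, 60.8% and 57.8% in KO and 64.9%, 64.2% and 64.1% in WT. Each of the 8 had an exact permutation p of 0.10, which follows from their lack of overlap and adds nothing to it. In 5 members the share of the picked transcript differed by more than 50 points within a group. Ldha-202, for example, was at 3.15%, 10.1% and 92.4% in KO and 94.9%, 79.9% and 20.5% in WT. Transcript shares in this table are therefore unstable for some genes.

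Reads that cover a base difference between the parental strains were assigned to genome 1 or genome 2, without a label that says which strain is which genome. With at least 20 assigned counts per library on average, 34 identifiers were tested for a genome 1 share that differs between KO and WT, and 12 passed (edgeR allele by group term, adjusted p under 0.05). Over all 12984 genes tested in this way 23.0% passed. Hif1a, Adm, Tpi1, Ldhb and Slc2a3 had too few assigned counts, as only 0.0122% of Hif1a counts could be assigned.

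The 7 members with a lower genome 1 share in KO included 4 on chromosome 7. Ldha had 31.3%, 31.9% and 31.6% of its assigned counts from genome 1 in KO and 59.6%, 59.2% and 60.6% in WT. Aldoa had 35.5%, 31.3% and 33.2% in KO and 63.4%, 63.5% and 62.5% in WT. All other genes of chromosome 7 together had 31.7% in KO and 57.6% in WT, so these genes moved with their chromosome.

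Gpi1 (33.8%, 37.2% and 31.4% in KO, 61.7%, 63.1% and 62.4% in WT) and Bnip3 (33.0%, 30.8% and 34.2% in KO, 60.2%, 62.7% and 63.2% in WT) showed the same shift. Pgam1 on chromosome 19 had 45.3%, 46.3% and 48.3% in KO and 68.1%, 69.3% and 67.5% in WT, beside 49.3% in KO and 69.5% in WT for the rest of its chromosome. Egln1 on chromosome 8 had 45.0%, 43.7% and 46.2% in KO and 57.3%, 59.9% and 58.5% in WT, beside 46.0% in KO and 56.2% in WT. In none of these did KO and WT overlap.

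Among the 12, Pfkp on chromosome 13 lay farthest from the shift of its chromosome, by 21.5 percentage points. It had 21.8%, 31.3% and 46.0% from genome 1 in KO 2, 9 and 22 and 55.5%, 59.3% and 57.6% in WT 1, 2 and 3, while the rest of chromosome 13 had 51.4% in KO and 54.2% in WT. The log2 ratio of genome 1 to genome 2, KO over WT, was -1.49 ± 0.41 (edgeR adjusted p = 0.0466), and -1.33 relative to the chromosome, which did not pass (limma adjusted p = 0.312). The Pfkp call was lost in limma without the chromosome taken out (adjusted p = 0.0588), and without KO 2, KO 9 or any 1 WT library in edgeR (adjusted p between 0.0699 and 0.143).

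The 5 members with a higher genome 1 share in KO were Hk1, Pfkl and P4ha1 on chromosome 10, Hk2 on chromosome 6 and Slc16a1 on chromosome 3. Hk2 had 65.1%, 68.9% and 65.9% in KO and 40.0%, 40.3% and 38.0% in WT, beside 62.1% in KO and 36.1% in WT for its chromosome. Slc16a1 had 69.7%, 70.5% and 68.3% in KO and 47.8%, 49.8% and 53.1% in WT, beside 69.3% in KO and 52.9% in WT. These groups did not overlap.

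The chromosome 10 genes Hk1 (54.7%, 45.2% and 55.7% in KO, 29.0%, 30.6% and 31.2% in WT), Pfkl (46.4%, 45.9% and 46.1% in KO, 31.4%, 32.5% and 33.0% in WT) and P4ha1 (53.5%, 48.8% and 49.1% in KO, 37.6%, 38.9% and 39.1% in WT) also did not overlap. The rest of chromosome 10 had 47.9% in KO and 36.9% in WT. All 12 members moved the way of the rest of their chromosome. With the share of the other genes of the chromosome taken out, 0 members passed in limma on the log2 ratios. Of the 34, 3 had an unadjusted p under 0.05, namely Hk1, Egln3 and Pfkp. Of all genes 0.695% passed and 12.9% had an unadjusted p under 0.05. The smallest adjusted p was 0.237, for Hk1, whose genome 1 share differed by 21.6 percentage points against 10.9 for its chromosome. P4ha1 lost its allelic call without any 1 WT library (edgeR adjusted p between 0.0538 and 0.0629). Limma called 11 of the 12 when the chromosome was not taken out.

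**Figure D5:**
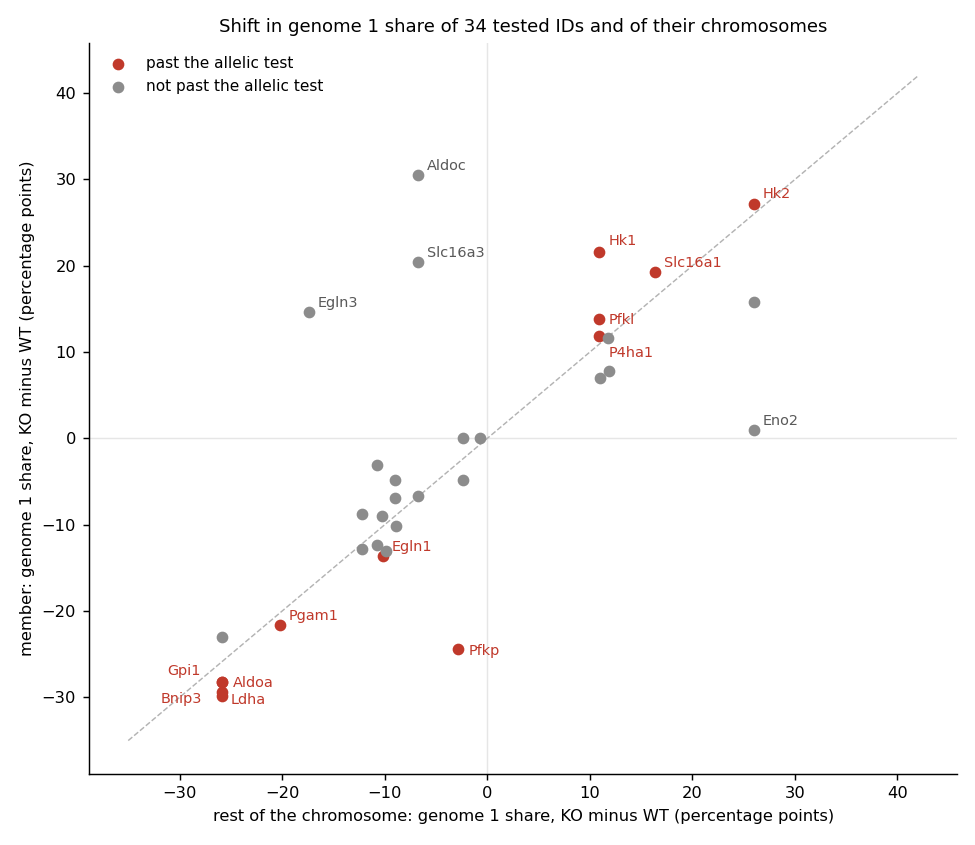
Difference in genome 1 share, KO minus WT in percentage points, of each of the 34 tested identifiers (y axis) against that of the other genes of its chromosome (x axis); the dashed line marks equal shifts and red points passed the allelic test. Most points lie near the line, and Pfkp, Egln3, Eno2, Aldoc and Slc16a3 lie farthest from it.

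Among the members that changed in total level, the split by genome varied. Egln3 had 160, 253 and 232 counts from genome 2 in KO and 451, 420 and 490 in WT, while its genome 1 counts were 160, 108 and 56 in KO and 100, 106 and 102 in WT. The lower Egln3 level was thus seen in genome 2 counts in every KO library and in genome 1 counts in KO 22 alone. Eno2 had 36, 7 and 111 counts from genome 1 in KO and 90, 108 and 109 in WT, and 170, 157 and 203 from genome 2 in KO and 475, 445 and 472 in WT. Neither passed the allelic test. The mean genome 1 share of Eno2 was 19.03% in KO and 18.07% in WT, with overlapping groups. The rest of chromosome 6 had 62.11% in KO and 36.13% in WT. Relative to its chromosome Eno2 did not pass (limma adjusted p = 0.497). The mean genome 1 share of Egln3 was 33.1% in KO and 18.5% in WT, with overlapping groups. The rest of chromosome 12 moved the other way, with 42.1% in KO and 59.5% in WT. Relative to its chromosome Egln3 did not pass either (limma adjusted p = 0.2425). Vegfa had 336, 284 and 319 counts from genome 1 in KO and 640, 647 and 634 in WT. Its genome 2 counts overlapped, at 282, 385 and 253 in KO and 360, 361 and 398 in WT. The Vegfa genome 1 shares did not overlap, with means of 50.86% in KO and 63.21% in WT. They did not pass (edgeR adjusted p = 0.0976). The rest of chromosome 17 moved the same way, with 44.86% in KO and 55.61% in WT. The shares of P4ha1 and Slc16a1 are given above.

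Some members were expressed mainly from 1 genome. Pgk1 had 10, 6 and 3 counts from genome 1 and 9420, 11517 and 6848 from genome 2 in KO, against 5, 0 and 3 from genome 1 and 8312, 8301 and 3967 from genome 2 in WT. All libraries thus carried Pgk1 RNA of genome 2, and the other X-linked genes together had 4.07% from genome 1 in KO and 4.73% in WT. The groups overlapped.

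Pdk1 was at the other extreme, with 99.7% to 100% from genome 1 in KO and the same range in WT. Its neighbours were alike: on chromosome 2, a run of 17 tested genes of 2.56 Mb, reaching over Pdk1 between Gorasp2 and Ola1 (chr2:70661576-73218924, GRCm38), had at least 95% from genome 1 in every library. Chromosome 2 as a whole had 51.9% to 62.3% in KO and at least 59.9% in each WT library, and 168 of its other 948 tested genes were also at 95% or more in every library. The Pdk1 share is therefore shared with its surroundings in both groups.

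Aldoc, the brain-type aldolase, had 14, 6 and 28 counts from genome 1 and 44, 183 and 0 from genome 2 in KO 2, 9 and 22. In WT it had 11, 20 and 14 from genome 1 and 91, 132 and 103 from genome 2. KO 22 was the only library with Aldoc RNA from genome 1 alone, at few counts, and the group difference did not pass (edgeR adjusted p = 0.673).

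In the wider pathway, few genes passed the gene-level test. Of 12 tested genes of the HIF machinery, 0 were higher and 2 lower. Hif1an, the asparagine hydroxylase that blocks HIF activity, had 64.8, 57.3 and 66.7 CPM in KO and 92.8, 94.0 and 92.2 CPM in WT (log2 fold change -0.53 ± 0.09, edgeR adjusted p = 0.0299). Rbx1, a subunit of the ubiquitin ligase that includes VHL, had 170, 169 and 168 CPM in KO and 230, 235 and 232 CPM in WT (-0.43 ± 0.07, edgeR adjusted p = 0.0264). The median log2 fold change of the list was -0.07.

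Of 36 other hypoxia-inducible genes tested, 2 were higher and 1 was lower, with a median log2 fold change of 0.09. Fam162a, a HIF-induced mitochondrial protein, had 158, 165 and 131 CPM in KO and 101, 107 and 102 CPM in WT (log2 fold change 0.58, edgeR adjusted p = 0.0288). Edn1, endothelin-1, had 11.8, 8.17 and 7.35 CPM in KO and 3.24, 3.76 and 3.71 CPM in WT (1.38, edgeR adjusted p = 0.0224). Angptl4, an inhibitor of lipoprotein lipase, had 0.688, 3.40 and 1.41 CPM in KO and 15.9, 13.6 and 12.4 CPM in WT (-2.90, edgeR adjusted p = 0.0364). Like the members, this list held genes that moved in both directions.

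Of 31 tested genes of pyruvate entry and the tricarboxylic acid cycle, 1 was higher, the X-linked pyruvate dehydrogenase kinase Pdk3 (log2 fold change 0.72), and 1 was lower, with a median of -0.09. In the pentose phosphate pathway Prps2 was higher (0.89) and G6pdx, its first enzyme, lower (-0.60), out of 9 tested with a median of 0.05. Among 13 regulators of glycolysis Sirt6 was higher (0.54) and Ppargc1a lower (-3.62, at under 0.5 CPM in every library), with a median of 0.07. None of 14 other sugar transporters and lactate genes passed edgeR's test (median 0.13). These counts of called genes per list stand beside 6.73% of all tested genes. An unadjusted p under 0.05 was found for 3 genes of the HIF machinery, 13 other hypoxia-inducible genes, 6 of pyruvate entry and the tricarboxylic acid cycle, 2 of the pentose phosphate pathway, 5 regulators and 4 other transporters, beside 26.3% of all tested genes. DESeq2 called 3, 8, 3, 2, 3 and 1 genes of these lists in the same order, counting only genes that edgeR also tested. Over all 29476 genes with any count it called 8.76%. That base also holds the low genes that edgeR's filter left out, so it is not a like measure for the lists.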

How the data were processed

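PolyA RNA of 3 KO and 3 WT libraries was used. The submitters' processing notes list the builds mm10 and GRCm38 and, without roles, the tools StringTie 1.3.3, HISAT2 2.1.0, DESeq2 1.32.0, Trimmomatic 0.36, SAMtools 0.1.19 and FastQC 0.11.3. The authors deposited tables of estimated counts, per gene and per transcript, both for the reads as a whole and for reads sorted by parental genome. All deposited values are whole, and they are treated as estimates since StringTie works from read coverage. Counting settings, strand and annotation were items not given in the sources used here. KO columns carry the numbers 2, 9 and 22. By name, 9 and 22 fit only later KO samples, while 2 fits a later and an earlier one, so that column is tied to the KO group alone.

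KO and WT were compared with edgeR 4.0.16 in R 4.3.3 (quasi-likelihood test, TMM scaling, default filter on low counts, Benjamini-Hochberg adjustment over all tested genes, called at adjusted p under 0.05). SE is the absolute log2 fold change over the square root of F. For genes averaging 20 or more counts assigned to a genome, the allelic test was the interaction of allele and group, in a model that also held each library and the allele. Transcript shares were compared by exact permutation tests in scipy 1.17.1. CPM is per 1000000 gene counts; TPM uses transcript counts and GENCODE M21 lengths. Copies are annotated genes with at least 90% identity over at least 300 bases that cover at least 50% of the copy, found with blastn 2.17.0. Alternatives used DESeq2 1.42.0 and limma 3.58.1.

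Of 55487 gene identifiers 55227 matched GENCODE M21. In simulated data edgeR called 46% of genes changed 2-fold, 89% of those changed 4-fold and 10 of 16169 unchanged genes for the gene-level comparison (16369 genes), and 13%, 44% and 2 of 12784 for the allelic one (12984 genes). KO libraries had a biological coefficient of variation of 0.379, against 0.136 for WT libraries. The simulated rates are not given for groups that differ this much in spread. They therefore cannot show how many changed or unchanged genes would be called in these libraries.

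The members and lists (HIF machinery, other hypoxia-inducible genes, pyruvate and tricarboxylic acid cycle, pentose phosphate pathway, regulators, other transporters, cell type markers) were chosen with earlier results of these data known. The genes given in full were the members past either test, the 5 tested members with the largest absolute log2 fold change among those that missed it, Hif1a, Epas1 and Pgk1, with Sirt7 and at most 4 list genes past the test per list. Other members named with values were chosen after the values were seen. One result of the list of pyruvate and tricarboxylic acid cycle genes is not reported here.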

Additional observations from a re-analysis of the deposited data

Results flagged for a closer look

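The genome 1 share of 12 members differed between KO and WT by the test of the difference itself (edgeR allele by group term). The log2 ratio of genome 1 to genome 2, KO over WT, was -1.78 for Aldoa, -1.68 for Gpi1, -1.69 for Ldha and -1.75 for Bnip3 on chromosome 7. It was -1.30 for Pgam1, -0.79 for Egln1 and -1.49 for Pfkp, and 1.62 for Hk2, 0.84 for Pfkl, 1.18 for Slc16a1, 1.31 for Hk1 and 0.70 for P4ha1. All 12 moved the way of the rest of their chromosome, and relative to it 0 passed in limma, with 3 members at an unadjusted p under 0.05 and a smallest adjusted p of 0.237. Groups of 3 libraries are too small for the test of single libraries that stand apart.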

How the results depend on the processing

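At gene level 5 members and 1123 genes were called. With DESeq2 2581 genes were called and 7 members, the 5 and also P4ha2 and Slc16a3. Limma-voom called 6, the same without P4ha1. With chromosome medians taken out 2 members (Egln3 and Eno2) and 670 genes were called, and with no filter on low counts 1 member (Vegfa) and 396 genes. Leaving out 1 library gave 0 to 8 members and 45 to 2482 genes, the lowest values without a WT library and the highest without KO 22. All 5 called members kept their direction in every alternative. Pfkp turned to a log2 fold change of -0.085 with limma-voom. With 1 library left out it ran between -1.17 (without KO 9) and 1.23, and Epas1 between -0.94 (without KO 22) and 1.52. Scaling by RLE or by library totals, and adding the copies' counts (chosen after the data were seen), left the same 5 members called.

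For the allelic ratio 12 members and 2992 genes were called. Relative to the chromosome these were 0 members and 90 genes in limma. Leaving out 1 library gave 10 to 15 members and 1710 to 3822 genes. Minimum counts of 10 and 50 kept the same 12 members.

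Transcripts separated the groups in 8 members, in 4 by shares of counts rather than per length, and in 9 to 12 with 1 library left out. The Vegfa-201 difference of 55.3 points was 66.0 points by shares of counts, and in the split table (chosen after the data were seen) 0.70, -16.7 and 21.9 points for genome 1, genome 2 and unassigned reads. With merged exon length 12 members reached 100 TPM, in place of 10. The cause of these changes was not tested.

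No paired analysis was possible because the KO columns carry the numbers 2, 9 and 22 and the WT columns 1, 2 and 3, which share only 1 number. Estimated counts that StringTie spreads over copies and transcripts limit Gapdh, Eno1 and transcript shares most, and few assigned counts limit the alleles of Hif1a and Tpi1.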
